A study of Sus scrofa with 33 samples.

Results

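MGP, the gene of matrix Gla protein, was followed over 33 pituitary arrays, 1 per pig. Its members were the probes whose annotation carries the gene name MGP or describes matrix Gla protein, and 7 of the 60305 probes of the array met this rule, for 1 gene of the 11753 named on it. MGP was selected on its measured log2 levels, which had been seen to differ between temperatures and between Creole pigs and the other 2 genetic groups, so those 3 contrasts are given below as descriptions without a p-value. All animals were castrated growing pigs, and the sample was the anterior lobe of the pituitary, stored frozen before RNA extraction. TN denotes pigs killed at a thermoneutral 24 °C, and HS denotes pigs killed after heat exposure. The labels give 30 °C for the HS group, whereas the text of the series gives 32 °C for 5 days. Creole (CR) contributed 5 TN and 6 HS arrays, Large White (LW) 5 TN and 6 HS arrays, and the F1 cross of these breeds 6 TN and 5 HS arrays. All TN pigs were killed before the temperature rose, so slaughter day, age and temperature cannot be told apart. Littermates and pen mates were included, and the pigs of each breed came from few litters, but litter, pen and slaughter day are not in the labels used here. Litter and pen are in no fit, so standard errors and p-values can be too small, above all between breeds.

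Matrix Gla protein is a small secreted protein of the extracellular matrix. Vitamin K-dependent carboxylation turns several of its glutamate residues into calcium-binding Gla residues, and the protein is best known as an inhibitor of soft-tissue and arterial calcification and as a binding partner of bone morphogenetic proteins (BMPs). It is made mainly by vascular smooth muscle cells, chondrocytes, fibroblasts and endothelial cells, which in the anterior pituitary form the minority around the hormone-producing cells.

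The 7 probes read different stretches of the transcript, and their sequences are shown because they decide which measurements are separate. The array annotation places probe 1 at base 278 of the MGP reference mRNA, probe 3 at 437, probe 5 at 493, probe 6 at 499 and probe 7 at 507, while probes 2 and 4 came from other sequence records. Probes 1 and 2 share a run of 57 bases, probes 3 and 4 share 22, probes 6 and 7 share 51, and probe 5 shares 27 with each of the latter. Outside these sets the longest run shared by probes of different sets was 8 bases. Capitals mark the places where members of a set differ or can be aligned with a different number of T.
probe 1: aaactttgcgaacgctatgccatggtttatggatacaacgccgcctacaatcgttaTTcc
probe 2: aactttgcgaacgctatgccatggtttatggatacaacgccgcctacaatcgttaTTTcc
Probes 1 and 2 are given whole, and probe 2 carries 1 more T in the run near its 3′ end. For the other probes a stretch of at most 30 bases around the difference is given.
probe 3: acacagacaaaTgcttgtttcttcaatgtc
probe 4: acacagacaaaTTgcttgtttcttcaatgt
probe 5: aTaaggaatgaaagtgccGtggagtgaagg
probe 6: aaaggaatgaaagtgccAtggagtgaagg
probe 7: aTaaggaatgaaagtgccAtggagtgaagg
Probe 6 lacks the T that probes 5 and 7 carry. Probe 5 differs from probe 7 by A19G, counted from 1 at the 5′ end of the printed stretch with the base of probe 7 first. No probe outside the 7 shared a run of 20 bases with any of them on either strand.

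All 7 probes passed the filter on dim probes, which left 47083 of the 60305 probes, and all 7 were well above background on each of the 33 arrays, with no saturated spot. Values are log2 quantile-normalized spot intensities. Probe 3 was the brightest, with a mean of 14.23 over the 33 arrays, but levels of different probes are not comparable because each binds with its own efficiency. Over the 33 arrays the 21 pairs of probes were correlated with r between 0.94 and 0.99 (median 0.97), given as a description since all probes read the same RNA. Their mean is therefore used as the MGP level, and the probes are not counted as replicates.

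Before the levels are given, 3 arrays need naming. LW TN 2 and CR TN 1 stood apart in cell type markers from the other 31 arrays. The summed level of endothelial markers was 16.1 in LW TN 2 and 15.6 in CR TN 1 against 14.3 to 15.2 elsewhere, and that of folliculostellate markers (the supporting cells of the anterior lobe) was 17.1 and 17.2 against 15.9 to 16.5. The summed level of the hormone genes and POU1F1 was 20.97 and 21.02 on these arrays against 21.1 to 21.3 on the others. They also held the highest MGP levels of the series, so the differences between breeds and temperatures are also given without them. The array LW HS 3 is Large White by its title but Creole by its breed field; it was kept as Large White. Hormone genes of the anterior lobe were bright on every array, but AVP and OXT, hormones of posterior lobe nerve endings, were also well above background on all 33 arrays.

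MGP was highest in Creole pigs at thermoneutrality and lowest in heat-exposed Large White pigs. In CR TN the array levels were 13.86, 14.24, 14.33, 14.63 and 14.94, with a mean of 14.40 ± 0.41 (SD, n = 5). In CR HS they ran from 13.50 to 14.56 with a median of 13.89 and a mean of 13.99 ± 0.38 (SD, n = 6). The Creole arrays of the 2 temperatures overlapped, with 2 of 5 TN arrays above every HS array and 2 of 6 HS arrays below every TN array.

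In LW TN, 4 arrays lay close together at 13.60, 13.61, 13.61 and 13.95, and LW TN 2 was at 14.80. Their mean was 13.91 ± 0.52 (SD, n = 5), and 13.69 ± 0.17 (SD, n = 4) without LW TN 2. The LW HS arrays ran from 12.67 to 13.55 with a median of 13.18 and a mean of 13.16 ± 0.34 (SD, n = 6). All Large White TN arrays were above all Large White HS arrays, but the gap between the lowest TN array, 13.60, and the highest HS array, 13.55, was narrow, and that HS array was LW HS 3.

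In the F1 cross, the TN arrays ran from 13.64 to 14.20 with a median of 13.87 and a mean of 13.89 ± 0.22 (SD, n = 6). The F1 HS arrays were at 13.19, 13.21, 13.32, 13.39 and 13.53, with a mean of 13.33 ± 0.14 (SD, n = 5). The F1 groups did not overlap, and F1 HS had the smallest SD of the 6. Across all 47083 probes, every HS array was below every TN array for 0.24% in Large White, and the share was 0.227% for F1 pigs and 0.261% for Creole pigs.

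**Figure D1:**
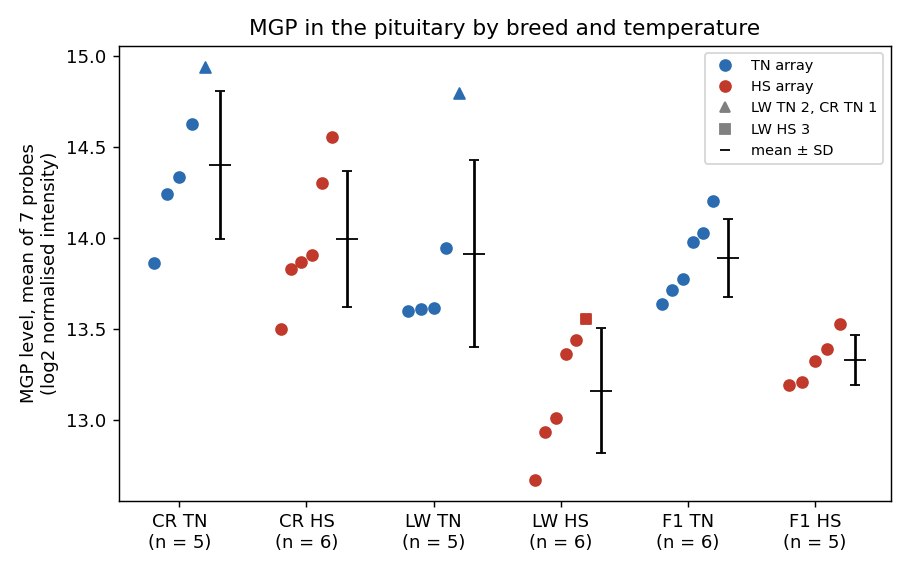
MGP level of each array (y axis, mean of 7 probes, log2 normalised intensity) in the 6 breed and temperature groups (x axis), with the group mean ± SD beside the points; triangles are LW TN 2 and CR TN 1 and the square is LW HS 3. TN and HS arrays are separate in LW and F1 and overlap in CR, and both triangles lie above 14.7.

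Ordered by mean, the groups were CR TN, CR HS, LW TN, F1 TN, F1 HS and LW HS. Of the 5 steps between neighbours in this order, only that from F1 TN to F1 HS, 0.56 on the log2 scale, was larger than the SD of either neighbour and came without overlap of the arrays. The step from CR TN to CR HS was 0.41, no larger than the SD of CR TN. CR HS, LW TN and F1 TN lay close together, with steps of 0.08 and 0.02. This closeness rested on LW TN 2. Without LW TN 2 and CR TN 1, LW TN fell below F1 TN in the order, with steps of 0.11 from CR HS to F1 TN and 0.20 from F1 TN to LW TN. The step from CR TN to CR HS was then 0.27, and that from LW TN to F1 HS was 0.36, without overlap of the arrays.

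MGP was lower in HS than in TN pigs by a similar amount on every probe. With breed in the model, the HS minus TN difference of the mean level was -0.57 ± 0.12 (SE), which places HS at 67.2% of TN, a 1.49-fold decrease. Single probes gave -0.60 to -0.56. The level was under the mean of the TN arrays of the same breed in 16 of 17 HS pigs. Without LW TN 2 and CR TN 1 the difference was -0.46. At the adjusted threshold of 0.05, 2 of the 7 MGP probes passed, where 0.0191% of all probes passed and 0.017% passed with a lower level in HS. This contrast chose the gene, so nothing is read from that count. It rose to 6 and 7 with slide as a fixed and as a random block, and dropped to 0 without the breed term, without LW TN 2 and CR TN 1, and in 7 of 33 refits, each lacking a single array.

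The heat difference of the mean level was -0.41 in Creole, -0.75 in Large White and -0.56 in F1 pigs. Without LW TN 2 and CR TN 1 the values were -0.27 in Creole and -0.53 in Large White, next to the -0.56 of F1. The difference between breeds in this response was not used by the rule and was tested with limma's moderated F-test of the breed by temperature interaction. None of the 7 MGP probes had an unadjusted p under 0.05, the smallest being 0.34, and their adjusted p-values lay between 0.92 and 0.95. Across all probes 0% passed the adjusted threshold for this interaction, with 2019 of 47083 at an unadjusted p under 0.05. The order of the breeds in their heat response is therefore within the error of these arrays.

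MGP was lower in both Large White and F1 pigs than in Creole pigs. With temperature in the model, Large White minus Creole was -0.68 ± 0.15 (SE), which places Large White at 62.5% of Creole, and single probes gave -0.73 to -0.63. F1 minus Creole was -0.60 ± 0.15 (SE), or 66.1% of Creole, with single probes from -0.66 to -0.53. Without LW TN 2 and CR TN 1 these differences were -0.73 and -0.54. All 7 probes passed the adjusted threshold in each contrast, where 6.53% and 6.66% of all probes passed, 2.99% and 3.31% with the level lower than in Creole. Both counts belong to contrasts that chose the gene.

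Since MGP was chosen for a difference of Creole from both other genetic groups, F1 minus Large White is also given as a description. It ran from 0.04 to 0.12 over the 7 probes. On the brightest probe, probe 3, it was 0.12 ± 0.15 (SE), and 0.24 ± 0.12 (SE) without LW TN 2 and CR TN 1. On a scale where Creole is 0 and Large White is 1, the F1 mean lay at 1.05 in TN and at 0.80 in HS, values given without error. Without LW TN 2 and CR TN 1 the TN value was 0.66, so that the F1 mean lay between those of the parent breeds. The 3 breed contrasts share their samples and are set side by side for that reason only.

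**Figure D2:**
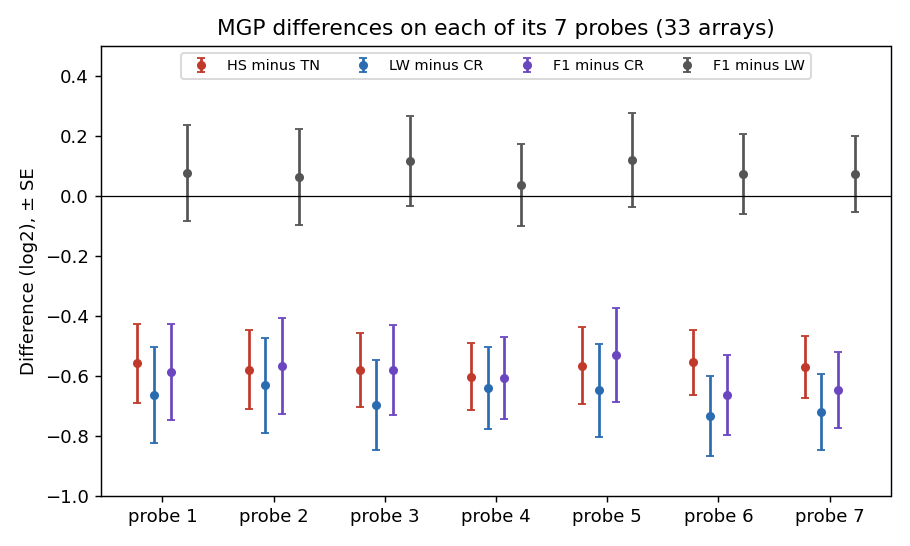
Difference in MGP level (y axis, log2, ± SE from limma) on each of the 7 probes (x axis) for HS minus TN, LW minus CR, F1 minus CR and F1 minus LW over 33 arrays. The first 3 differences lie between -0.73 and -0.53 on every probe, and F1 minus LW lies between 0.04 and 0.12.

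The arrays came on 5 slides, and each slide held several groups. MGP did not pass a test for slide on any probe, with adjusted p-values from 0.20 to 0.75 (limma), where 14.6% of all probes passed. Probes 1 to 3 had unadjusted p-values of 0.06 to 0.07 for slide. Within slides the HS minus TN difference of the mean level was -0.91 on slide 2, -0.51 on slide 3, -0.85 on slide 4 and -0.44 on slide 5. Large White minus Creole was -0.31, -0.32, -0.73 and -0.94 on the same slides, and F1 minus Creole -0.82, -0.05, -0.70 and -0.60. Every within-slide value was below 0, and slide 1, with 3 arrays, gave none. With slide as a block the differences were -0.61 for HS minus TN, -0.67 for Large White minus Creole and -0.62 for F1 minus Creole.

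Probe 5 departed from probe 7 on 4 arrays. The 2 probes differ by 1 base in the printed stretch, but they also start at different bases and differ in GC content, 45% against 35%. On 29 arrays probe 5 minus probe 7 lay between -0.19 and 0.12. It was 0.55 on F1 TN 3, -0.43 on CR TN 2, -0.36 on CR TN 5 and -0.33 on CR HS 3. The pattern was noticed after the values were known. None of the 4 arrays was Large White, the breed of 11 of the 33 arrays, and the cause was not tested.

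Genes of the pathway in which MGP acts were taken from 9 lists of named genes, and 84 of them had a probe that passed the filter. For HS against TN, 0 of 84 passed the adjusted threshold in limma. An unadjusted p under 0.05 was found for 10 of them, against 4086 of all 47083 probes. The median difference of the 84 was -0.04, against 0.02 over all 10426 named genes, each taken by its brightest kept probe as here. For Large White against Creole 11 of 84 passed, 10 lower and 1 higher in Large White, a share of 13.1% against 6.98% of all named genes and 6.53% of all probes (2.99% lower and 3.53% higher). For F1 against Creole 4 of 84 passed, all lower in F1, a share of 4.76% against 7.83% of all named genes and 6.66% of all probes (3.31% lower and 3.35% higher). The counts for these breed contrasts moved to 18 and 7 with array weights, and the F1 count to 10 with slide as a block.

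Of the enzymes that make vitamin K available for carboxylation of MGP and their partners, 7 genes were listed and 4 were kept. Of these, 2 passed for Large White against Creole, 1 in each direction, and 0 passed for HS against TN, with 0 at an unadjusted p under 0.05. CALU had a Large White minus Creole difference of -0.01 (adjusted p = 0.93). The carboxylase itself, GGCX, was not among the named probes. VKORC1, the epoxide reductase that recycles vitamin K and the target of warfarin, had an HS minus TN difference of 0.04 (adjusted p = 0.87) and a Large White minus Creole difference of -0.06 (adjusted p = 0.74). NQO1, a quinone reductase, was lower in Large White by -0.28 (adjusted p = 0.036), with its 2 other probes at -0.41 and -0.35, a call lost without LW TN 2 and CR TN 1 and in 14 of 33 refits lacking a single array. AIFM2, which reduces vitamin K at membranes, was higher in Large White by 0.39 (adjusted p = 0.044), a call lost under 5 of 11 alternatives. In F1 against Creole, 0 of the 4 passed and 1 had an unadjusted p under 0.05. The other Gla proteins, among them the bone protein BGLAP, the TAM-receptor ligand GAS6 and clotting factors, had 8 kept genes and no call in any of the 3 contrasts, with 1, 0 and 3 at an unadjusted p under 0.05.

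No BMP ligand passed the threshold. BMP2 differed by -0.02 between HS and TN and by -0.06 between Large White and Creole, and BMP4 by -0.10 and 0.06. The 5 kept ligands had no call in any contrast, with 0, 1 and 1 at an unadjusted p under 0.05. Of 9 kept receptors and SMAD proteins, which carry the BMP signal to the nucleus, ACVR1, a type I receptor, was lower in F1 than in Creole by -0.26 (adjusted p = 0.010), while its 5 other probes ran from -0.50 to 0.26 and 2 of them passed.

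Among 6 kept target genes of BMP signalling, ID1 and ID3 were lower in Large White than in Creole. ID1, an inhibitor of basic helix-loop-helix factors, differed by -0.44 (adjusted p = 0.028), but its second probe gave 0.05 and did not pass. ID3, of the same family, differed by -0.35 (adjusted p = 0.018) and its other probe by -0.35, which also passed. Both calls were lost with processed intensities scaled to the 75th percentile. Neither gene passed in F1 against Creole, where the differences were -0.18 for ID1 and -0.04 for ID3, nor in HS against TN, with -0.03 and -0.02.

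Of 6 kept BMP antagonists, CHRD, chordin, was lower in Large White than in Creole by -0.36 (adjusted p = 0.0041) and by the same amount on its second probe. CHRDL1, a chordin-like protein, was lower in F1 than in Creole by -0.48 (adjusted p = 0.036), and its other probe gave 0.17. The call was lost with processed intensities and in 10 of 33 refits lacking a single array. CHRD in F1 against Creole was 0.00 (adjusted p = 0.99).

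Of 7 kept genes of mineralisation, ENPP1 passed. It makes pyrophosphate, an inhibitor of mineral growth, and it was lower in Large White than in Creole by -0.48 (adjusted p = 0.0013), while its 2 other probes gave -0.49 and -0.09. SPP1, the phosphoprotein osteopontin, had differences of 0.04 for heat and -0.10 for Large White against Creole, neither of which passed.

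Retinoic acid is known to act on MGP transcription. The retinoid and vitamin D list had 17 kept genes, but CYP24A1, which degrades active vitamin D, had the same value on all arrays on its brightest probe and carries no measurement there. Of the other 16, 15 were lower in Large White than in Creole, where 48.8% of all named genes were lower, and 3 passed, of which 2 are described here. ALDH1A3, an enzyme that makes retinoic acid, was lower by -0.67 (adjusted p = 0.00071) in Large White and by -0.64 (adjusted p = 0.0023) in F1, and its second probe passed in both contrasts. CYP26A1, which degrades retinoic acid, was lower in Large White by -0.59 (adjusted p = 0.0039). In HS against TN no gene of this list passed, and 3 were higher at an unadjusted p under 0.05.

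Of 22 kept elastic fibre and small matrix proteins, 20 were lower in HS than in TN, with a median of -0.11 and none past the threshold. Of all 10426 named genes 40.9% were lower in HS, with a median of 0.02. OGN, a small proteoglycan, was lower in Large White than in Creole by -0.58 (adjusted p = 0.0060). VTN, vitronectin, which binds MGP, was lower by -0.64 (adjusted p = 0.029) on its brightest probe, while its 7 other probes ran from -0.08 to 0.36 and none passed. FN1, fibronectin, another partner of MGP, was lower in F1 than in Creole by -0.66 (adjusted p = 0.0099).

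**Figure D3:**
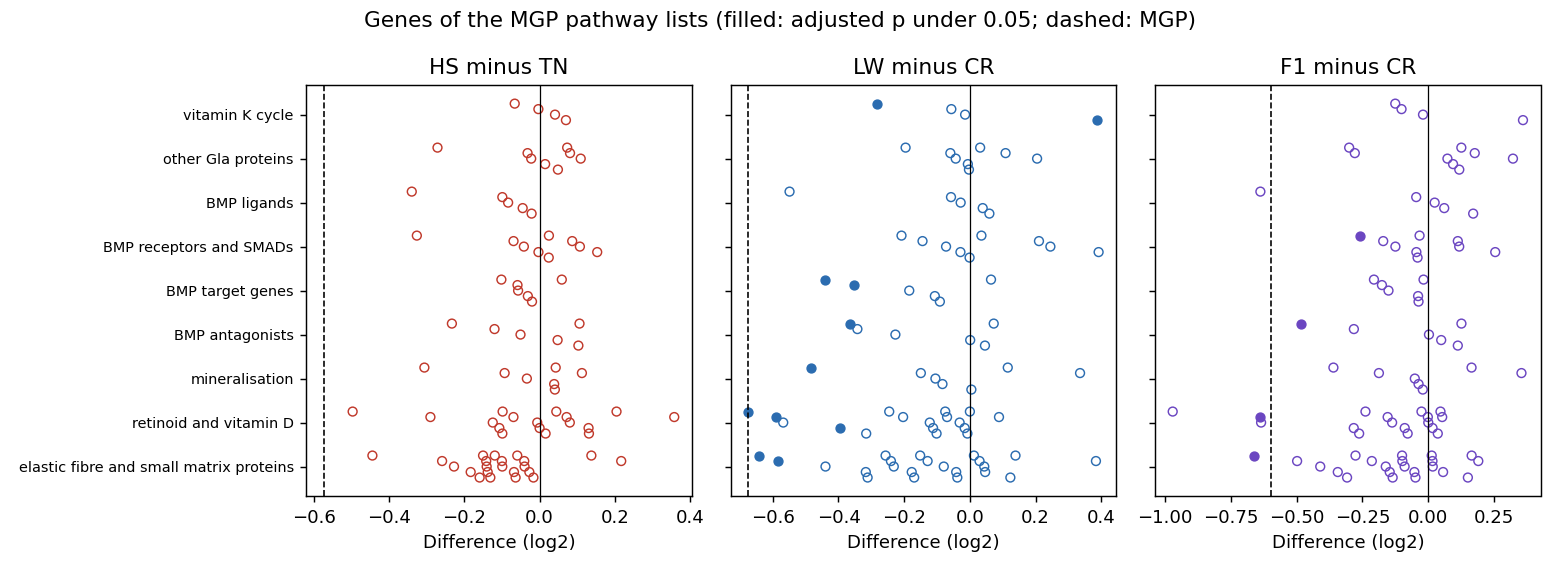
Differences (x axis, log2) of the 84 kept genes of the 9 pathway lists (y axis, vertical offsets within a list only separate the points) for HS minus TN, LW minus CR and F1 minus CR; filled points passed the adjusted threshold of 0.05 and the dashed line is the MGP difference. No point is filled for HS minus TN, 11 are filled for LW minus CR and 4 for F1 minus CR.

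The 10 genes with levels most like that of MGP included 4 collagen genes. Likeness was Pearson's r with the mean MGP level over the 33 arrays, taken for the brightest kept probe of 10414 named genes, whose median r was -0.05. The highest were COL6A3 at 0.91, VCAN at 0.88, COL3A1 at 0.86, COL1A2 at 0.85, TLR2 at 0.85, OLFML3 at 0.82, CCDC80 at 0.81, COL1A1 at 0.81, MATN2 at 0.80 and IGFBP7 at 0.79. COL6A3, COL3A1, COL1A2 and COL1A1 encode collagen chains, VCAN the proteoglycan versican, MATN2 a matrilin and IGFBP7 a secreted binding protein, while TLR2 is a receptor of innate immunity. On their brightest probes not all matrix genes were alike. The 22 kept elastic fibre and small matrix proteins had a median r of 0.24, the lowest being COMP at -0.39, and LUM had an r of -0.15. Other probes of COMP and LUM differed from these. COMP gave 0.38 for Large White minus Creole on its brightest probe and -0.49 on its other probe. For F1 minus Creole LUM gave -0.08, while its 10 other probes ran from -1.13 to 0.04 and 5 passed. These are descriptions over arrays that share breed, temperature and slide, and they carry no p-value. Without LW TN 2 and CR TN 1, which were the farthest from the MGP median, r was 0.88 for COL6A3 and 0.81 for COL3A1, and 7 of the 10 genes were still among the first 10.

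COL6A3, like MGP, was highest in CR TN and lowest in LW HS. This gene was picked for its high r with MGP over these arrays, so a like order of the groups is largely built in. Its level was 8.98 ± 0.63 (SD, n = 5) in CR TN and 8.48 ± 0.49 (SD, n = 6) in CR HS. In Large White it was 8.55 ± 0.60 (SD, n = 5) in TN and 7.71 ± 0.32 (SD, n = 6) in HS, and in F1 8.19 ± 0.22 (SD, n = 6) in TN and 7.76 ± 0.06 (SD, n = 5) in HS. In LW TN, LW TN 2 was at 9.59 and the other 4 arrays at 8.17 to 8.49. As for MGP, the Large White and the F1 arrays of the 2 temperatures did not overlap and the Creole arrays did. Over all probes, HS lay below TN without overlap for 0.24% in Large White and 0.227% in F1. Its 6 other probes had r between 0.33 and 0.90 with MGP.

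**Figure D4:**
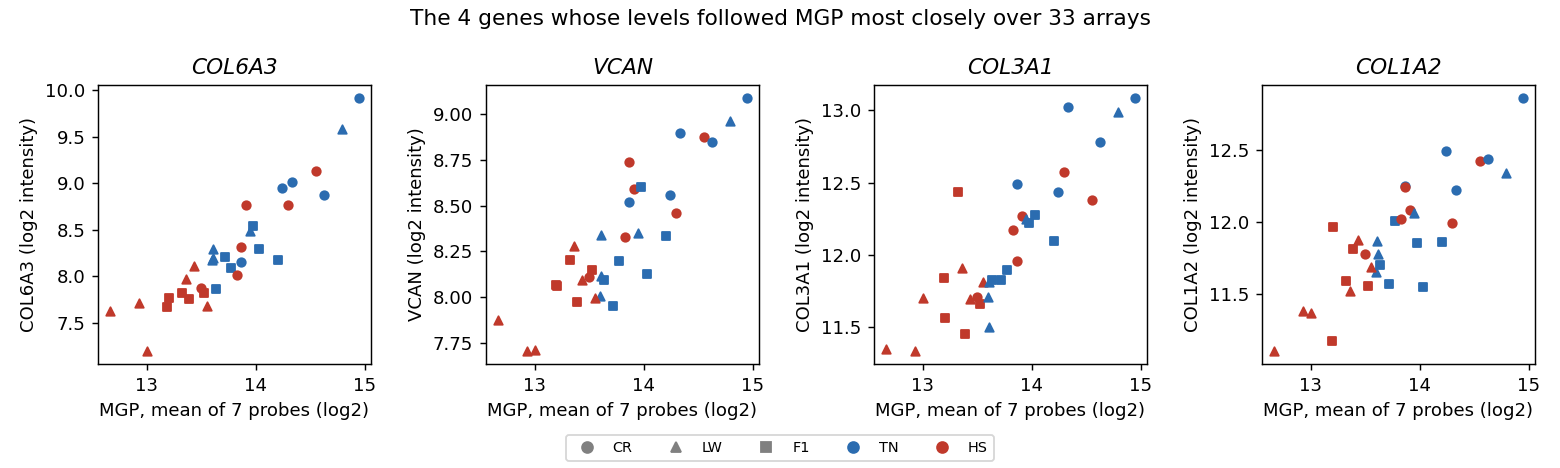
Level of COL6A3, VCAN, COL3A1 and COL1A2 (y axes, log2 normalised intensity) against the MGP level (x axes, mean of 7 probes, log2) with 1 point per array; shapes give the breed and colours the temperature. Over the 33 arrays r was 0.85 to 0.91. Within the F1 HS group COL3A1 does not rise with MGP, and its highest array there, at 12.44, has a middle MGP level.

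With the breed by temperature means removed, so that only differences among pigs of 1 group were left, COL6A3 (0.84), VCAN (0.78) and COL3A1 (0.76) were again the first 3. SERPING1, ITIH5, CERCAM, NES and ADAMTSL3, at 0.73 to 0.75, entered the first 10, and 5 genes were shared with the list over all arrays. NES, nestin, and ITIH5 had rank 80 and 248 in the list over all arrays. When LW TN 2 and CR TN 1 were left out, the r over the arrays, group means included, fell from 0.55 to 0.29 for ITIH5, from 0.65 to 0.45 for NES and from 0.65 to 0.44 for CERCAM. The lowest r over all arrays were those of CACNB2 at -0.75, STXBP5 at -0.72 and DDX25 at -0.72, genes of a calcium channel subunit, a regulator of vesicle release and an RNA helicase.

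Markers of the cell types that could carry MGP were set beside it, as summed levels of lists of marker genes. In bulk samples, fewer cells of a type and less RNA per cell cannot be told apart. Of the 10 sums, that of fibroblast markers had the highest r with MGP. A sum of linear intensities weights bright genes most, and the median r of its 9 single genes with group means removed was 0.18, against 0.50 for folliculostellate and 0.47 for endothelial genes. The fibroblast sum was 0.27 ± 0.08 (SE) lower in HS than in TN, 0.57 ± 0.10 (SE) lower in Large White than in Creole and 0.46 ± 0.10 (SE) lower in F1 than in Creole. With group means removed, the fibroblast sum and MGP were correlated with r = 0.75 (permutation p = 1e-05, the smallest these permutations can give, adjusted over 10 lists 1e-04) and Spearman's rho = 0.71 (permutation p = 2e-05, adjusted 2e-04). It was 0.74 without the 2 arrays farthest from the median of the fibroblast sum, 0.79 with slide removed as well, and 0.58 without LW TN 2 and CR TN 1. The part of these cells in the MGP differences was not tested. COL3A1, COL1A2 and COL1A1 belong to this sum and were also among the 10 genes most like MGP. The marker lists were chosen with earlier results of these data known, which the permutation p-values here and below do not cover.

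Of 9 fibroblast markers, all kept, 6 passed with a lower level in Large White than in Creole and 4 with a lower level in F1 than in Creole, where 2.99% and 3.31% of all probes did. For HS against TN 0 passed, with 4 lower and 1 higher at an unadjusted p under 0.05, where 4086 of all 47083 probes had such a p. The higher one was THY1, a surface glycoprotein, at 0.46 (adjusted p = 0.38). COL1A2 was lower by -0.56 (adjusted p = 0.00061) in Large White and by -0.59 (adjusted p = 0.00078) in F1. DCN, decorin, was lower by -0.69 (adjusted p = 0.00085) in Large White and by -0.49 (adjusted p = 0.021) in F1, with all 5 other probes past the threshold in both. The F1 call was lost with LW HS 3 taken as Creole. DPT, dermatopontin, was lower by -0.70 (adjusted p = 0.00099) and -0.69 (adjusted p = 0.0021). COL3A1 was lower by -0.62 (adjusted p = 0.0049) and -0.56 (adjusted p = 0.014). COL1A1 was lower in Large White by -0.61 (adjusted p = 0.027). Between HS and TN, COL1A1 differed by -0.47, COL3A1 by -0.41 and COL1A2 by -0.32, with adjusted p-values of 0.25, 0.19 and 0.17. PDGFRA, a defining fibroblast receptor, was well above background on 15 of the 33 arrays, and the remaining 8 markers on all of them.

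Folliculostellate and endothelial markers followed MGP through LW TN 2 and CR TN 1. With group means removed, r was 0.65 (permutation p = 0.00236, adjusted 0.0118; rho = 0.58, permutation p = 0.00098, adjusted 0.0049) for the folliculostellate sum and 0.54 (permutation p = 0.0145, adjusted 0.0362; rho = 0.37, permutation p = 0.0489, adjusted 0.122) for the endothelial sum. Without these 2 arrays r fell to 0.30 and 0.12. The cartilage sum had r = 0.55 (permutation p = 0.00868, adjusted 0.0289; rho = 0.39, permutation p = 0.0329, adjusted 0.11) and 0.19 without them. Mural, erythroid, leukocyte, posterior lobe, intermediate lobe and endocrine sums did not pass, with adjusted p-values from 0.108 to 0.323 for r.

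Of 9 kept endothelial markers 2, KDR and CDH5, passed with a higher level in Large White than in Creole, where MGP was lower. Of all probes 3.53% passed in that direction. Over all named genes 48.8% were lower in Large White, and 7 of the 9 markers had a positive difference. VWF, von Willebrand factor, at -0.16 (adjusted p = 0.66) and TEK at -0.03 (adjusted p = 0.97) had a negative one. The endothelial sum was 0.32 ± 0.14 (SE) higher in Large White and 0.28 ± 0.11 (SE) lower in HS than in TN. The mural sum, of smooth muscle and pericyte genes, was 0.10 ± 0.04 (SE) lower in Large White than in Creole and 0.08 ± 0.03 (SE) lower in HS than in TN, but 6 of the 9 kept mural genes had a higher mean in Large White than in Creole. KDR, the VEGF receptor of endothelial cells, was higher in Large White by 0.94 (adjusted p = 3.9e-05) and in F1 by 0.59 (adjusted p = 0.0098) on its brightest probe, and its 2 other probes, at 0.01 to 0.15, did not pass in either contrast. CDH5 was higher in Large White by 0.41 (adjusted p = 0.046), a call lost under 4 of 11 alternatives, and its other probe gave 0.23 and did not pass. TEK, an angiopoietin receptor, was lower in F1 by -0.75 (adjusted p = 0.0083), and its 3 other probes ran from -0.65 to 0.13, of which 1 passed. RGS5, a pericyte gene, was higher in Large White by 0.72 (adjusted p = 0.0076) and by 0.96 on its other probe. ACTA2, smooth muscle actin, was lower in F1 by -0.24 (adjusted p = 0.048), a call lost under 6 of 11 alternatives, and none of its 7 other probes passed. Of the smooth muscle markers MYH11 was well above background on 1 array, and ROBO4 of the endothelial list on none. All 9 kept endothelial and all 9 kept mural markers had a negative HS minus TN difference, and 0 of each passed. An unadjusted p under 0.05 was found for 4 and 6 of them, against 4086 of all 47083 probes. Over all named genes 40.9% were lower in HS.

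Of 7 cartilage markers 4 were kept. COL2A1, the collagen of cartilage, was lower in Large White than in Creole by -1.29 (adjusted p = 0.0010) and was the only call. ACAN, aggrecan, differed by 0.07, COL9A1 by 0.07 and COL10A1 by -0.05, with adjusted p-values from 0.56 to 0.85. ACAN was well above background on 33 arrays, COL9A1 on 32, COL10A1 on 29, MATN3 on 3 and MATN1 on none. The erythroid sum was 0.28 ± 0.09 (SE) lower in HS than in TN. Of the erythroid markers, HBB, beta globin, was lower in HS than in TN by -1.15 (adjusted p = 0.031), a call lost with array weights, without LW TN 2 and CR TN 1, and in 14 of 33 refits lacking a single array. S100B of the folliculostellate list was lower in F1 by -0.39 (adjusted p = 0.042) and CSF1R, a macrophage receptor, by -0.39 (adjusted p = 0.026). POU1F1, the transcription factor of somatotrophs, lactotrophs and thyrotrophs, was lower in Large White by -0.34 (adjusted p = 0.037). The 2 kept posterior lobe and 2 kept intermediate lobe markers had no call, with 2 of the latter higher in Large White at an unadjusted p under 0.05. The call of S100B in F1 was lost under 4 alternatives, that of POU1F1 under 3 and that of CSF1R under 2, processed intensities and normexp correction. The endocrine sum differed by 0.01 for HS minus TN, 0.01 for Large White minus Creole and 0.02 for F1 minus Creole. This sum is carried by its brightest hormone genes, with means up to 19.02, and says little about the dimmer ones. Of its 8 genes, 4 were lower and 4 higher in Large White than in Creole, with 2 and 1 at an unadjusted p under 0.05.

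**Figure D5:**
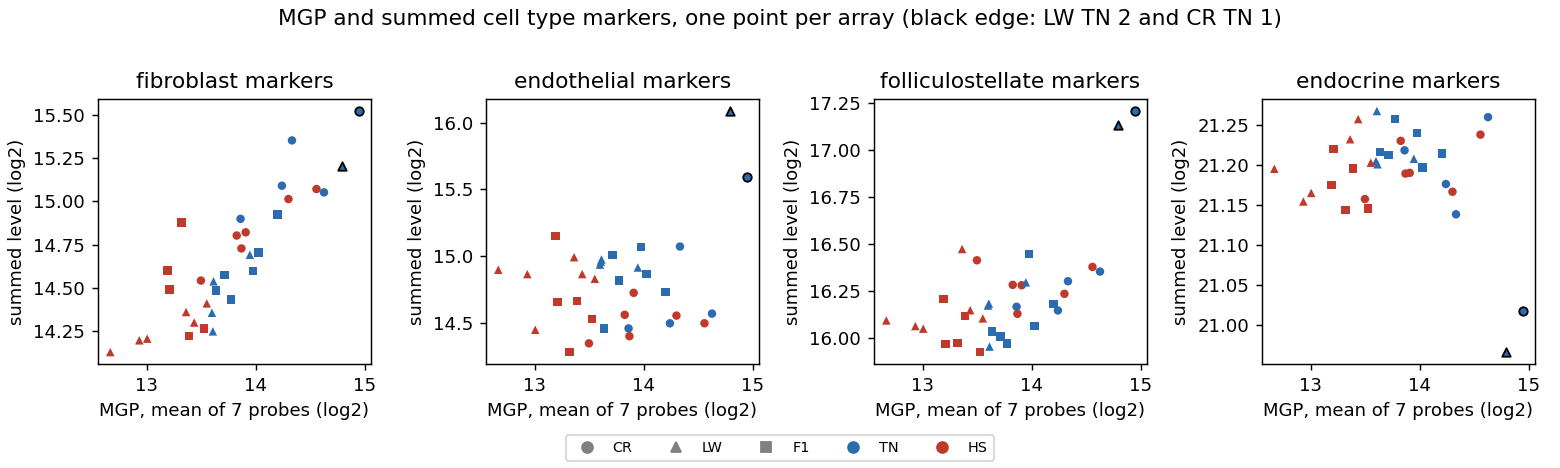
Summed level of fibroblast, endothelial, folliculostellate and endocrine markers (y axes, log2) against the MGP level (x axes, mean of 7 probes, log2), 1 point per array, with shapes for breed and colours for temperature. The fibroblast sum rises with MGP over the 33 arrays, and the points with a black edge, LW TN 2 and CR TN 1, lie apart from the other 31 in the remaining panels.

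None of the measured genes beside MGP on the chromosome passed the threshold. In the order of the pig reference gene table (assembly Sscrofa11.1), 10 protein-coding genes, 5 on each side, were looked up, and 5 had a kept probe. These were PTPRO, RERG, ARHGDIB, ART4 and SMCO3, with no call in the 3 contrasts and 1, ARHGDIB for HS against TN, at an unadjusted p under 0.05. ARHGDIB, a GTPase regulator of blood cells 2 places away, had an HS minus TN difference of -0.24 (adjusted p = 0.42), a Large White minus Creole difference of 0.08 (adjusted p = 0.80) and an r of 0.73 with MGP after removal of the group means. The other 4 had r between -0.37 and 0.15 by the same measure.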

How the data were processed

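Total RNA from 33 pig pituitaries was hybridised by the authors, 1 animal per array, to 1-colour Agilent arrays read with Agilent Feature Extraction 10.10.1.1 per the labels. The deposited scanner files hold spot intensity, and the deposited log2 table holds the authors' quantile-normalized values. Here the median spot intensity was quantile-normalized without background correction, as the authors described, and set to log2, with outlier spots left out; the deposited log2 values of MGP differed from it by at most 0.008. Per array, median intensity was 131 to 165 over a background of 20 to 47.5, and 73.5 to 82.2% of probes were well above background. Probes well above background on 75% of the arrays of at least 1 group were kept.

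Differences came from limma 3.58.1 (R 4.3.3; breed plus temperature, Benjamini-Hochberg over 47083 probes, threshold 0.05). The authors' random effects of pen, slaughter day and kinship are not in the labels. Probes without a gene name were named through a reference gene table by accession (2325) or synonym (190), and 35961 stayed unnamed. The fit was tested on simulated data.

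MGP and the gene lists were chosen with earlier results of these data known. Named were every MGP probe; per list the genes past the threshold, at most 4 per contrast, with VKORC1, BMP2, BMP4, ID1 and SPP1 always; the 10 highest and 3 lowest genes by likeness; and the kept neighbours. A gene was represented by its brightest kept probe. A summed level is the log2 of the sum of a list's linear intensities, and correlations with it used 1e+05 permutations. Individual values of some list genes are not reported here.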

Additional observations from a re-analysis of the deposited data

Results flagged for a closer look

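Single arrays were compared with the others of their group for 68 items (the MGP probes and their mean, the named genes and the summed marker levels) in 6 groups, and 33 of 408 such groups held an array far from the rest; chance gives about 1 in 20. LW TN 2 accounted for 16 of them and CR TN 1 for 4. LW TN 2 was at 15.06 on MGP probe 1, where the other LW TN arrays were at 13.73 to 14.1, at 15.08 on probe 2 (13.78 to 14.12) and at 15.34 on probe 3 (14.01 to 14.33).

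Other high levels on LW TN 2 were COL2A1 at 8.106, KDR at 10.56, CDH5 at 10.35, CHRDL1 at 10.48, COL6A3 at 9.588, MATN2 at 11.78, NES at 11.88 and CERCAM at 10.84, and AIFM2 was low at 10.19. Its summed marker levels were 16.09 for endothelial, 9.04 for cartilage, 17.14 for folliculostellate and 20.97 for endocrine genes. CR TN 1 was at 10.13 for COL2A1, where the other CR TN arrays reached 7.999, at 9.304 for ENPP1 (9.632 to 9.708), at 10.36 for the cartilage sum and at 17.21 for the folliculostellate sum. The part of cell composition in the MGP levels of these 2 arrays was not tested.

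The remaining arrays each gave 1 or 2 such values. LW HS 4 was low for KDR at 9.107 and for the endothelial sum at 14.45, and LW HS 2 was high for the folliculostellate sum at 16.47. High values were ID1 at 13.54 on CR TN 4, AIFM2 at 11.16 on CR HS 5, ACTA2 at 13.8 on CR HS 3, DPT at 9.838 on F1 TN 3, NQO1 at 9.41 on LW TN 1 and S100B at 14.84 on F1 HS 3. Low values were ACTA2 at 13.42 on LW TN 3, CACNB2 at 7.117 on CR HS 1, CCDC80 at 11.03 on F1 HS 1 and RERG at 7.799 on F1 HS 2.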

How the results depend on the processing

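The MGP differences were recomputed under 11 alternatives that apply to all results, 1 without the breed term for HS against TN, and 33 fits that left out 1 array. All kept their direction. HS minus TN lay between -0.61 and -0.46, and between -0.62 and -0.50 without single arrays; Large White minus Creole between -0.76 and -0.64, and between -0.78 and -0.61; F1 minus Creole between -0.62 and -0.54, and between -0.67 and -0.54. F1 minus Large White on the brightest probe was 0.07 to 0.24 under the alternatives and 0.06 to 0.24 without single arrays. The interaction did not pass under any alternative, and its adjusted p was 0.842 to 0.997 without single arrays. With LW HS 3 taken as Creole, HS minus TN was -0.61, Large White minus Creole -0.68 and F1 minus Creole -0.57; with it left out they were -0.59, -0.71 and -0.60.

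The number of MGP probes past the threshold for HS against TN was 2 in the reported fit, 6 and 7 with slide as a fixed and as a random block, 1 with array weights, 0 without the breed term, 0 without LW TN 2 and CR TN 1 (an alternative chosen after seeing the data), and 0 to 5 without single arrays. It was 0 without each of F1 HS 1, CR TN 1, CR HS 2, CR HS 3, CR HS 5, LW TN 4 and LW HS 6. The cause was not tested. The pathway genes past the threshold numbered 0 for HS against TN in every fit. For F1 against Creole the count of 4 became 10 with slide as a fixed block, 8 as a random block and 7 with array weights, and 3 to 7 without single arrays, 7 without LW TN 2. For Large White against Creole the count of 11 became 18 with array weights and 7 to 16 without single arrays, 7 without LW HS 1. TN and HS pigs were different animals, and no pairing by litter was possible because the labels carry no litter. The number of arrays limits the precision. Of the other named calls, ALDH1A3, CYP26A1, CHRD, OGN, FN1, ACVR1, ENPP1, COL2A1, COL3A1, DPT and RGS5, and that of COL1A2 for F1 against Creole, held under all alternatives and all single left-out arrays, while the COL1A2 call for Large White against Creole was not followed through them; leaving out 1 array ended that of ID1 in 6 fits, VTN in 5, COL1A1 in 5, NQO1 in 14, AIFM2 in 18, CHRDL1 in 10, CDH5 in 21, ACTA2 in 23, S100B in 14, CSF1R in 2 and POU1F1 in 11.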
